A study of Danio rerio with 2 samples.

Results

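Heat shock proteins and the factors that switch on their genes were followed in zebrafish (Danio rerio) embryos that had received a morpholino against the transcript of estrogen receptor beta2. The group holds 8 genes, taken by name from the array: hsp70l, hspa8, hspb1 and hspb11, whose products work in the cytosol, hspa5 of the endoplasmic reticulum (ER), hspd1 of mitochondria, and the factors hsf1 and hsf2. They occupy 19 of the 43839 spots that are not controls. No spot carries the older name hsp70; hsp70l was found through its NCBI gene number, and 1 of the 6 hspb11 spots carries an older clone name.

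Ovulated oocytes were injected with 10.3 ng per embryo of a morpholino, an antisense oligonucleotide, of 1 of 2 kinds. MO2-ers2a blocks translation of the receptor's mRNA (ers2a in the labels, esr2a in current nomenclature), and MO-control is the control morpholino. The 4 RNA samples were MO2-ers2a and MO-control embryos aged 48 hpf (hours after fertilization), when organs are in place, and MO2-ers2a and MO-control embryos at 8 hpf, during gastrulation. The sources used here give neither the strain nor how many embryos made up an RNA sample. Total RNA was hybridised to 2-colour Agilent arrays, with MO2-ers2a in the red dye (Cy5) and MO-control in the green dye (Cy3) on both. Each time had 1 array with no replicate and no dye swap, so no test between the groups was possible, and a dye effect cannot be told apart from a morpholino effect.

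Heat shock proteins are chaperones, which hold, fold or refold other proteins. In unstressed cells the factor Hsf1 is kept inactive by chaperones; when misfolded protein occupies them, Hsf1 forms trimers and switches on inducible members such as hsp70l. ER and mitochondrial chaperones answer mainly to stress pathways of their own compartments. Several heat shock genes are also switched on by development without stress, hsp70l in the zebrafish lens among them.

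A spot counted as measured when both of its background-subtracted signals exceeded a limit set from 153 negative control spots. The log2 ratio of MO2-ers2a over MO-control was taken after loess normalization within the array, and for a gene its median over the measured spots is given. At 48 hpf 16631 genes and unnamed transcripts were measured, with a median log2 ratio of -0.02, and at 8 hpf 15356, also with -0.02. Spots of the same gene differed with a pooled SD, in log2 units, of 0.24 at 48 hpf and 0.32 at 8 hpf. This is the one spread between repeated measures of a gene that these arrays offer. It is technical, and the spread of log2 ratios over all measured genes was wider. Neither of the 2 esr2a spots was measured at either time, and since a translation block need not lower the transcript, they are no check of the labels. Lens markers separated the stages, with 9 of 9 genes measured at 48 hpf against 2 at 8 hpf. Detection overlapped more for gastrula genes, 7 of 10 at 48 hpf and all 10 at 8 hpf. The same held for skeletal muscle genes, 12 of 13 at 48 hpf and 8 at 8 hpf. Their signals differed more. In MO2-ers2a embryos, measured gastrula spots summed to 14349 at 48 hpf and 441579 at 8 hpf, and muscle spots to 846682 and 3155.

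All 8 genes were measured on both arrays, over 16 spots at 48 hpf and 13 at 8 hpf, though hspb11 at 8 hpf only on 1 dim spot. At 48 hpf, hspb11 was higher by 2-fold or more and none of the 8 was lower by that much; of all measured genes, 1.27% were 2-fold higher and 1.25% 2-fold lower. At 8 hpf, hsp70l and hsf1 were 2-fold lower and none was 2-fold higher, beside 2.25% of all measured genes lower and 2.32% higher. The median of the 8 log2 ratios was -0.01 at 48 hpf and -0.13 at 8 hpf, the latter with the dim hspb11 spot counted. The genes thus did not lie to one side as a group. Between the times, the log2 ratio of none of the 7 genes other than hspb11, which had no spot measured at both, differed by 4-fold, beside 0.577% of the 13179 genes measured on both arrays.

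**Figure D1:**
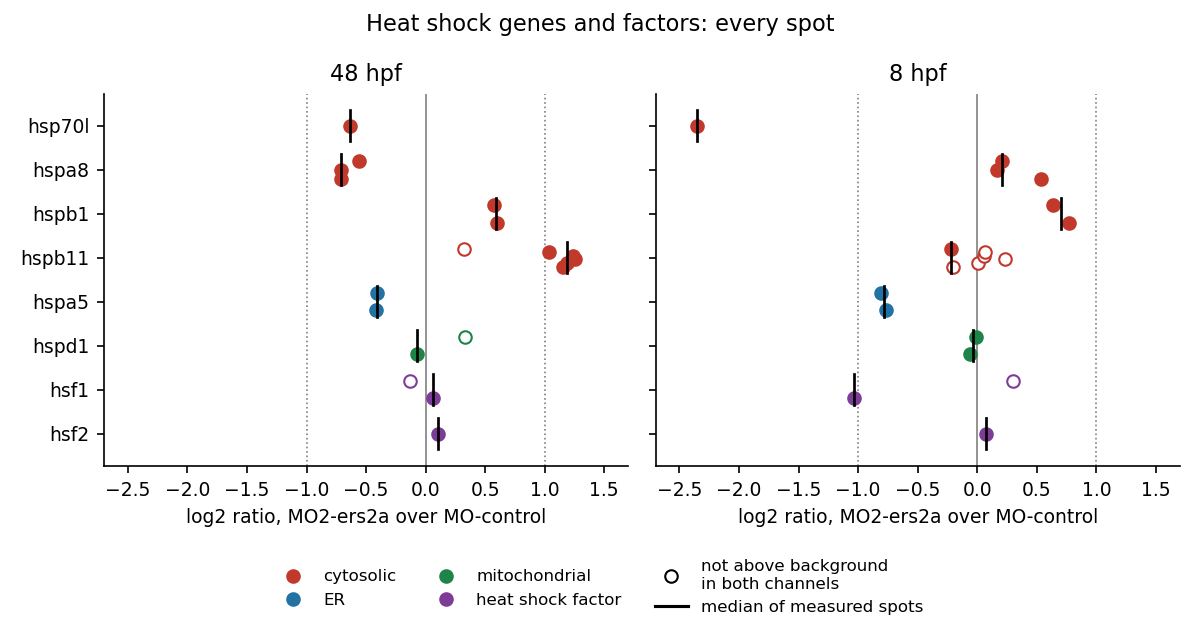
The log2 ratio of MO2-ers2a over MO-control for each of the 19 spots (circles), by gene, at 48 hpf (left) and 8 hpf (right); open circles were not above background in both channels, black bars are medians of measured spots, and dotted lines mark 2-fold. The 5 bright hspb11 spots lie beyond 2-fold at 48 hpf, and hsp70l lies at -2.35 at 8 hpf.

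hsf1 encodes the main activator of the heat shock response and hsf2 a related factor known in mammals for roles in development. hsf1 has 2 spots. The brighter gave background-subtracted signals of 912.5 in MO2-ers2a and 545.5 in MO-control embryos at 48 hpf, and 2412 in MO2-ers2a and 2425.5 in MO-control embryos at 8 hpf. The near-equal signals at 8 hpf correspond to a log2 ratio of -1.03, because spots of that brightness were on the whole redder, and the loess curve there stood at 1.04. The curve depended on brightness and came to 0.24 at the second, dim hsf1 spot. At 48 hpf the log2 ratio was 0.06. That second spot gave 50 in MO2-ers2a and 43.5 in MO-control embryos at 8 hpf, where the green channel was below its limit, and its log2 ratio of 0.30 has the opposite sign. The 2-fold call for hsf1 at 8 hpf thus rests on 1 spot: the value was -0.37 when the dim spot was counted and -0.88 with median centring in place of loess. hsf2 had 1 spot, with signals of 5119.5 in MO2-ers2a and 2758.5 in MO-control embryos at 48 hpf, and 16153.5 in MO2-ers2a and 6981.5 in MO-control embryos at 8 hpf. Its log2 ratios, 0.10 at 48 hpf and 0.07 at 8 hpf, were smaller than the spread between spots. Of 5 other factors and binding proteins listed, 3 were on the array; hsbp1b, whose product binds Hsf1, stood at -0.03 at 48 hpf and -0.04 at 8 hpf, and hsf5, near the detection limit, at -0.04 at 48 hpf.

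hsp70l encodes a stress-inducible HSP70, a chaperone that is nearly silent in many unstressed cells. Its 1 spot gave 933.5 in MO2-ers2a and 911.5 in MO-control embryos at 48 hpf, and 668 in MO2-ers2a and 1831 in MO-control embryos at 8 hpf. At 8 hpf no other measured spot of the 8 genes was dimmer in the red channel by so much. The log2 ratio was -0.64 at 48 hpf and -2.35 at 8 hpf, where hsp70l was 5.10-fold lower in MO2-ers2a embryos. At 8 hpf it was the 26th lowest of the 15356 measured genes, and at 48 hpf 5.51% of genes were lower. The authors' deposited table gives log2 ratios of -0.70 at 48 hpf and -2.59 at 8 hpf. Under the 8 alternative ways of processing, the value stayed between -0.70 and -0.52 at 48 hpf and between -2.77 and -2.24 at 8 hpf. Since hsp70l has 1 spot, well above background, the limit of 5 SD, no limit and the brightest spot could not change it. After the arrays were brought to a common scale, the log2 level of hsp70l at 48 hpf was 0.70 above that at 8 hpf in MO2-ers2a embryos and 1.02 below it in MO-control embryos. The log2 levels were 9.64 in MO2-ers2a and 10.28 in MO-control embryos at 48 hpf, and 8.95 in MO2-ers2a and 11.3 in MO-control embryos at 8 hpf, so that both extremes fell at 8 hpf. With 1 spot per sample, no error can be given for these levels. Whether the probe also binds the close relatives hsp70.1, hsp70.2 and hsp70.3, which have no named spot, was not tested.

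Lens and neuron markers were also lower at 48 hpf. Of the lens list, 9 of 9 genes lay below 0 with a median of -0.64 and a range of -0.84 to -0.34, and of the neuron list 7 of 7 with a median of -0.78 and a range of -0.88 to -0.26. The background-subtracted signals of the lens spots summed to 282711 in MO2-ers2a and 230680 in MO-control embryos, before the loess correction, which was 0.65 to 0.94 on the bright spots of the 8 genes at 48 hpf. Their part in the value of hsp70l at 48 hpf was not tested, and in RNA of whole embryos fewer cells of a type and less RNA per cell cannot be told apart. At 8 hpf, 7 of the 9 lens genes were not measured, and the other two, crygn2 at 0.15 and lim2.4 at -0.46, lay on both sides of 0.

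hspa8 encodes the constitutive HSP70 of the cytosol, which folds new proteins in every cell. Its brightest spot gave 46931.5 in MO2-ers2a and 40170.8 in MO-control embryos at 48 hpf, and 90067.5 in MO2-ers2a and 26034.3 in MO-control embryos at 8 hpf. The log2 ratios of the 3 spots were -0.71, -0.71 and -0.56 at 48 hpf, and 0.54, 0.16 and 0.21 at 8 hpf. All 3 spots lay below 0 at 48 hpf and above 0 at 8 hpf. Spots on the same array share its scaling and are not replicates of a condition. The gene's values were -0.71 at 48 hpf, beyond the spread between spots, and 0.21 at 8 hpf, within it. Of all measured genes, 4.17% were lower than hspa8 at 48 hpf, and 27.0% were higher at 8 hpf. The difference of -0.92 is 1.89-fold. The sign at 8 hpf flipped to -0.20 when the array was scaled to its spike-in spots, a scaling that also put the median of all genes at -0.55. As with hsp70l, the neuron and lens markers moved in the same direction at 48 hpf, and their part was not tested.

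**Figure D2:**
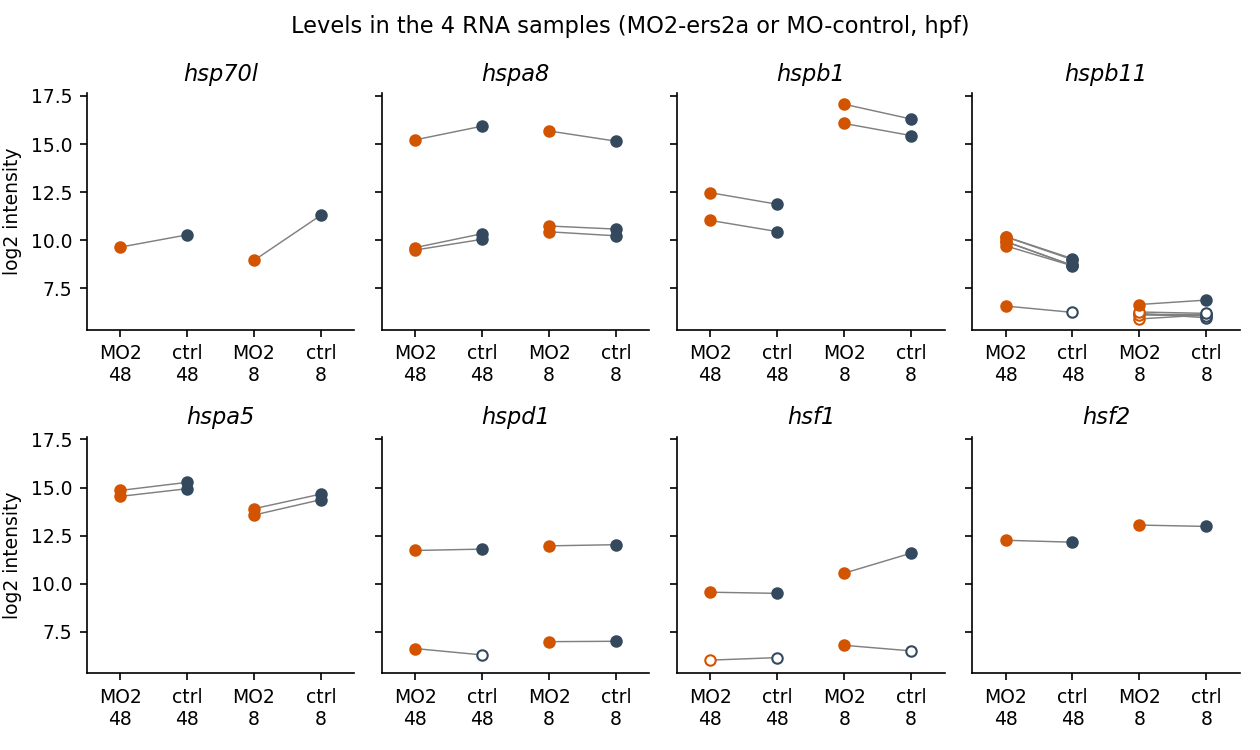
Log2 intensity of each spot of the 8 genes in the 4 RNA samples, MO2-ers2a (orange) left of MO-control (dark) at 48 hpf and then at 8 hpf, after loess and scaling of mean intensity between the arrays; grey lines join the channels of a spot, and open circles were not above background in that channel. hspa8 slopes in opposite directions at the 2 times, and both hspb1 spots lie more than 4 log2 units lower at 48 hpf; heights of different spots are not comparable.

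Small heat shock proteins hold unfolding proteins without using ATP. hspb1, known in mammals as HSP27, has 2 spots, both far brighter at 8 hpf than at 48 hpf. The first gave 5936 in MO2-ers2a and 2253.5 in MO-control embryos at 48 hpf, and 223081 in MO2-ers2a and 52266.5 in MO-control embryos at 8 hpf. The second gave 2379.5 in MO2-ers2a and 943 in MO-control embryos at 48 hpf, and 118005 in MO2-ers2a and 31458.9 in MO-control embryos at 8 hpf. Before the loess correction, red exceeded green on both spots at both times, as spots of that brightness did on the whole. The correction took 0.79 and 0.74 off the log2 ratios at 48 hpf, and 1.32 and 1.27 at 8 hpf. The log2 ratios were 0.60 and 0.58 at 48 hpf, and 0.77 and 0.63 at 8 hpf, giving gene values of 0.59 and 0.71. Of all measured genes, 5.55% were higher than hspb1 at 48 hpf and 5.31% at 8 hpf, and neither value reached 2-fold. With median centring in place of loess the value at 8 hpf was 1.11, past 2-fold. The level at 48 hpf was 28.2-fold lower than at 8 hpf in MO2-ers2a embryos and 26.0-fold lower in MO-control embryos. The like size in the 2 groups restates the like log2 ratios at the 2 times. With 1 array per age, a difference between ages cannot be told apart from one between arrays. Of the 8 genes, hspb1 was the one that stood beyond the spread between spots on the higher side at both times.

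hspb11 encodes a small heat shock protein whose transcript, in zebrafish embryos, is known to respond to muscle activity. At 48 hpf its 5 bright spots gave 1435.5, 1426, 1230.5, 1220 and 1035.5 in MO2-ers2a embryos, against 380.5, 370, 303, 305 and 301.5 in MO-control embryos. Before the loess correction, every one of the 5 was more than 3 times as bright in the red channel. Their log2 ratios ran from 1.04 to 1.26 with a median of 1.19, a 2.27-fold higher level, and 0.716% of measured genes were higher. The authors' deposited table gives 1.29 to 1.48 for these spots. The value stayed past 2-fold under all 8 alternatives, from 1.12 to 1.40. The sixth spot, under the older name, was dim, with 41 in MO2-ers2a and 42 in MO-control embryos at 48 hpf, and stood apart from the other 5.

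At 8 hpf none of the 5 spots was above its limit in either channel, with signals of 0.5 to 17 in MO2-ers2a and 26.5 to 36 in MO-control embryos. The value of -0.22 for hspb11 at that time comes from the dim sixth spot alone, with 41 in MO2-ers2a and 63 in MO-control embryos, and the authors' table has it at 0.64, with the opposite sign. hspb11 was therefore not measurable at 8 hpf in any useful sense, and its difference between the times, 1.41, is not interpreted. Over the 5 spots, the level at 48 hpf was at least 12.7-fold higher than at 8 hpf in MO2-ers2a embryos and at least 4.50-fold higher in MO-control embryos, taking the lowest detectable signal, or the spot's own where that was brighter, as the level at 8 hpf. These bounds are open to dye bias.

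Skeletal muscle markers, set beside hspb11, were mixed at 48 hpf. Of 12 measured, 8 lay above 0, with a median of 0.19 and a range of -0.20 to 1.27, and desma, the desmin gene, was 2-fold higher. Next below desma were smyd1b at 0.85, smyd1a at 0.60 and casq1b at 0.42, and at the low end casq1a at -0.20 and atp2a1 at -0.18; hspb11 stood at 1.19. The muscle spots summed to 846682 in MO2-ers2a and 386605 in MO-control embryos. These sums precede the loess correction, which lowered the ratio of red to green on bright spots. The part of muscle RNA in the value of hspb11 was not tested. Among other small heat shock genes, 8 of 11 listed were on the array. At 48 hpf 5 were measured, with a median of -0.10, from cryaa of the lens at -0.58 to hspb6 at 0.34. At 8 hpf hspb6 at 0.82 and hspb8 at 0.39 were measured. None of these reached 2-fold at either time.

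hspa5 encodes BiP, the HSP70 of the ER, which rises when secretory proteins misfold there. Its first spot gave 35306.9 in MO2-ers2a and 24988.7 in MO-control embryos at 48 hpf, and 29084.3 in MO2-ers2a and 21485.7 in MO-control embryos at 8 hpf. The second gave 26792.1 in MO2-ers2a and 19097.5 in MO-control embryos at 48 hpf, and 23426.8 in MO2-ers2a and 17983 in MO-control embryos at 8 hpf. Red exceeded green by less than for other spots of like brightness, so the log2 ratios were below 0, at -0.41 on both spots at 48 hpf and -0.77 and -0.81 at 8 hpf. The gene's values, -0.41 at 48 hpf and -0.79 at 8 hpf, were larger than the spread between spots and short of 2-fold. Of all measured genes, 13.6% were lower than hspa5 at 48 hpf and 4.11% at 8 hpf. The value at 48 hpf depended on the curve fitted to bright spots and was -0.09 with median centring, while that at 8 hpf was -0.48 by the same method and just past 2-fold with spike-in scaling.

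Most other ER chaperone genes lay below 0 along with hspa5 at 48 hpf. Of 33 genes listed for ER folding and the unfolded protein response, the pathway that answers ER stress, 26 were measured at 48 hpf. 21 of them lay below 0 and the median was -0.44, where all measured genes had -0.02. calr (calreticulin, a calcium-binding chaperone) at -1.12 was 2-fold lower, 3 spots running from -1.54 to -0.61, and none was 2-fold higher. With median centring calr fell short of 2-fold. hsp90b1, the HSP90 of the ER, stood at -0.89 on 2 spots that differed by less than 0.1, dnajb11, a co-chaperone of BiP, at -0.86 and the chaperone canx at -0.50. Above 0 were the stress factors ddit3, the highest, at 0.48 and atf4a at 0.44, the collagen chaperones serpinh1a at 0.34 and serpinh1b at 0.24, and dnajc10 at 0.28. The median ran from -0.56 to -0.39 under the alternatives. The lens and neuron lists, with medians of -0.64 and -0.78, lay lower still. For the lens list this order depended on the processing. With median centring the medians were -0.34 for lens, -0.39 for the ER list and -0.62 for neuron. Spike-in scaling also put lens, at -0.50, above the ER list, at -0.56. Of the erythroid markers, 7 of 8 were below 0 at 48 hpf, with a median of -0.27. They ran from the globin gene hbbe2 at -1.25 to gata1a at 0.56. Medians at 48 hpf were above 0 for markers of gastrula (0.33), skeletal muscle (0.19), and epidermis and enveloping layer (0.18). The 1 measured hatching gland marker, he1.1, stood at 0.37. The erythroid spots summed to 191225 in MO2-ers2a and 150355 in MO-control embryos, again before the loess correction. The part of any of these tissues in the ER list was not tested.

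At 8 hpf the same list went both ways. Of 25 measured, 13 lay below 0 and 12 above, with a median of -0.35. The co-chaperone genes dnajc3a at -1.41 and dnajb9b at -1.38, each on 1 spot, and the ER stress gene creld2 at -1.14 were 2-fold lower. The 2 spots of creld2 stood at -1.49 and -0.79, the latter short of 2-fold. hsp90b1 stood at -0.87, and the factor gene xbp1 was the highest, at 0.51. Spots disagreed more than at 48 hpf: those of calr ran from -2.07 to 0.93 and those of herpud1 from -1.74 to 0.09. The median came to -0.08 with median centring and -0.06 without a filter on dim spots, so the shift of this list at 8 hpf was not stable to processing.

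**Figure D3:**
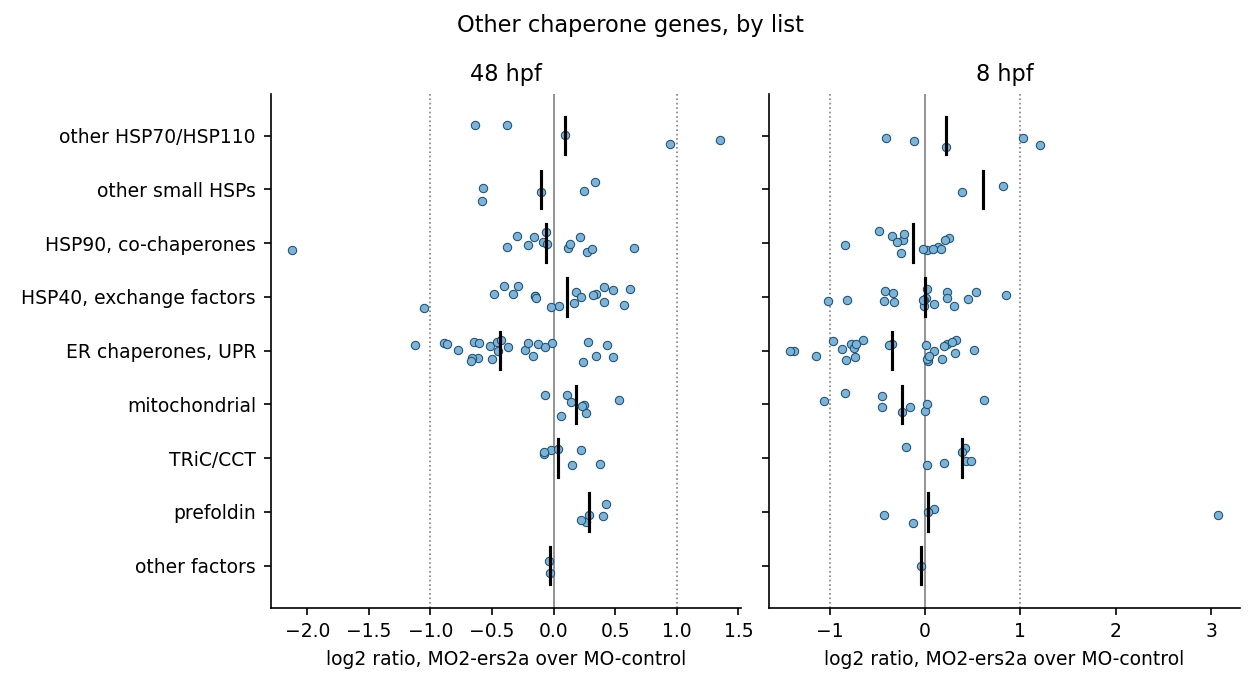
Log2 ratio of MO2-ers2a over MO-control for each measured gene of 9 lists of other chaperone genes and factors, at 48 hpf (left) and 8 hpf (right); bars are medians and dotted lines mark 2-fold. The ER list has its median at -0.44 at 48 hpf, and pfdn2 stands alone at 3.07 at 8 hpf.

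hspd1 encodes HSP60, the barrel-shaped chaperonin of the mitochondrial matrix. Its brighter spot gave 3562 in MO2-ers2a and 2193 in MO-control embryos at 48 hpf, and 7196 in MO2-ers2a and 3549 in MO-control embryos at 8 hpf. The log2 ratio of that spot was -0.08 at 48 hpf and -0.07 at 8 hpf, less than the spread between spots. The second spot was dim, near the limit at 8 hpf with 71.5 in MO2-ers2a and 65.5 in MO-control embryos, and gave -0.01 there; at 48 hpf its green signal was below the limit. Other mitochondrial chaperones and proteases had a median of 0.19 at 48 hpf, with 7 of 8 measured genes above 0, and of -0.24 at 8 hpf, with 7 of 9 below 0. These counts depended on the processing. At 8 hpf, 5 of 9 were below 0 with median centring and 9 of 9 with spike-in scaling. At 48 hpf, 2 of 8 were below 0 with either. hspe1, the partner of Hspd1, stood at 0.26 at 48 hpf and -0.24 at 8 hpf, and hspa9, the mitochondrial HSP70, at 0.24 and -0.16. dnajc19, of the import motor, was the highest of the list at 48 hpf at 0.53 and the lowest at 8 hpf at -1.05, the one 2-fold member; with median centring it was not past 2-fold.

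Of the HSP90 family and its co-chaperones, 14 of 16 on the array were measured at each time, with medians of -0.06 at 48 hpf and -0.12 at 8 hpf that turned to 0.12 and 0.01 with median centring. hsp90ab1, the constitutive HSP90, stood at -0.08 at 48 hpf and 0.25 at 8 hpf over 4 spots. hsp90aa1.1, an HSP90 of muscle that heat also induces, was at -0.16 at 48 hpf, and unc45b, the myosin chaperone, was the highest at 0.65. fkbp5, a co-chaperone of steroid receptors, was 2-fold lower at 48 hpf, at -2.12, although its 2 spots differed, at -2.69 and -1.56. Its median red signal of 43.5 was near the limit of 27.7, so the size of this ratio is uncertain. The authors' table has -4.19. At 8 hpf ahsa1a was the lowest, at -0.83. HSP40 genes and nucleotide exchange factors had medians of 0.10 at 48 hpf (20 measured) and 0.00 at 8 hpf (18 measured). dnajc5aa, a synaptic vesicle chaperone, was 2-fold lower at 48 hpf at -1.05 and hspbp1 at 8 hpf at -1.02, both calls that median centring ended. The heat-inducible dnajb1a stood at -0.29 at 48 hpf and -0.34 at 8 hpf, dnajb1b at 0.22 and 0.01, and bag3 at 0.62 and -0.33. None of these approached hsp70l at 8 hpf.

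Other genes of the HSP70 and HSP110 family had medians of 0.10 at 48 hpf and 0.22 at 8 hpf over 5 measured genes each, the second turning to -0.32 with spike-in scaling. hspa12b, a distant relative expressed in endothelium, was 2-fold higher at 48 hpf at 1.35. hspa12a at 1.03 and hspa13, the highest of the family, were 2-fold higher at 8 hpf, though not with spike-in scaling. hspa12a, measured on 1 of its 2 spots, was the lowest of the family at 48 hpf, at -0.64. hspa13 rests on 1 spot, whose green signal of 79 was near the limit of 59.9. The TRiC chaperonin, which folds actin and tubulin, had a median of 0.04 at 48 hpf, or 0.37 with median centring, and of 0.38 at 8 hpf, with 6 of 7 subunits above 0 at 8 hpf and cct8 the highest at 0.49. Prefoldin, which hands proteins to TRiC, had 5 of 5 subunits above 0 at 48 hpf, from 0.22 to 0.42; at 8 hpf pfdn2 was 2-fold higher at 3.07 on 1 spot, and the other 4 lay between -0.42 and 0.09. Over all 9 lists, 92 genes were measured at 48 hpf, of which 1 (1.09%) was 2-fold higher and 3 (3.26%) 2-fold lower, beside 1.27% and 1.25% of all measured genes. At 8 hpf 86 were measured, of which 3 (3.49%) were 2-fold higher and 5 (5.81%) 2-fold lower, beside 2.32% and 2.25%.

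**Figure D4:**
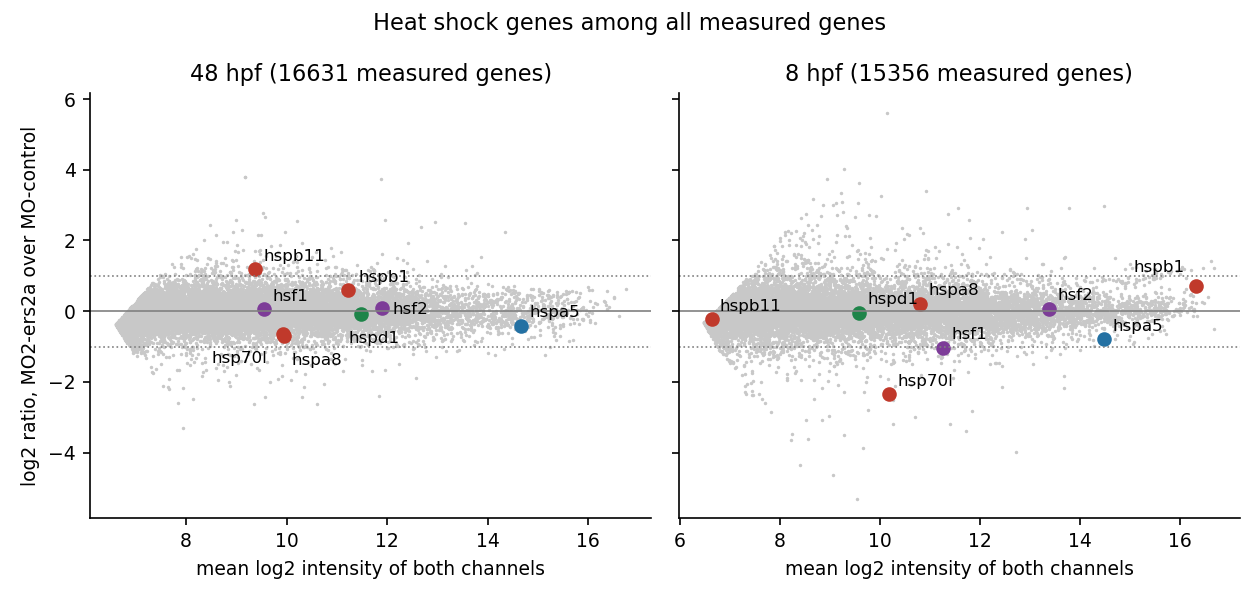
Log2 ratio of MO2-ers2a over MO-control against mean log2 intensity for all measured genes (grey, 16631 at 48 hpf on the left and 15356 at 8 hpf on the right), with the 8 heat shock genes coloured by compartment (red cytosolic, blue ER, green mitochondrial, purple factors). hsp70l lies in the lower part of the cloud at 48 hpf and at its lower margin at 8 hpf.

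Genes with a pattern like that of hsp70l were sought among 8009 others with an assigned symbol measured on both arrays, by the distance between their pairs of log2 ratios. The nearest was zgc:113176, at -0.73 at 48 hpf and -2.18 at 8 hpf, a distance of 0.19. It was followed by sec31a, a coat protein gene of ER export vesicles, at -0.47 and -1.92 (distance 0.47), and si:dkeyp-97b10.3 (distance 0.48). Each rests on 1 spot, and likeness over 2 arrays is a weak description. For hspb11 the same search gave si:ch211-141o9.10, tfr2 (a transferrin receptor gene) and ntn1a (a netrin gene), at 1.24, 1.21 and 1.12 at 48 hpf. Their values at 8 hpf, -0.22, -0.17 and -0.31, were matched to an hspb11 value from a spot near the limit. The genes were thus picked partly by that value, and no search on 48 hpf alone was run.

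**Figure D5:**
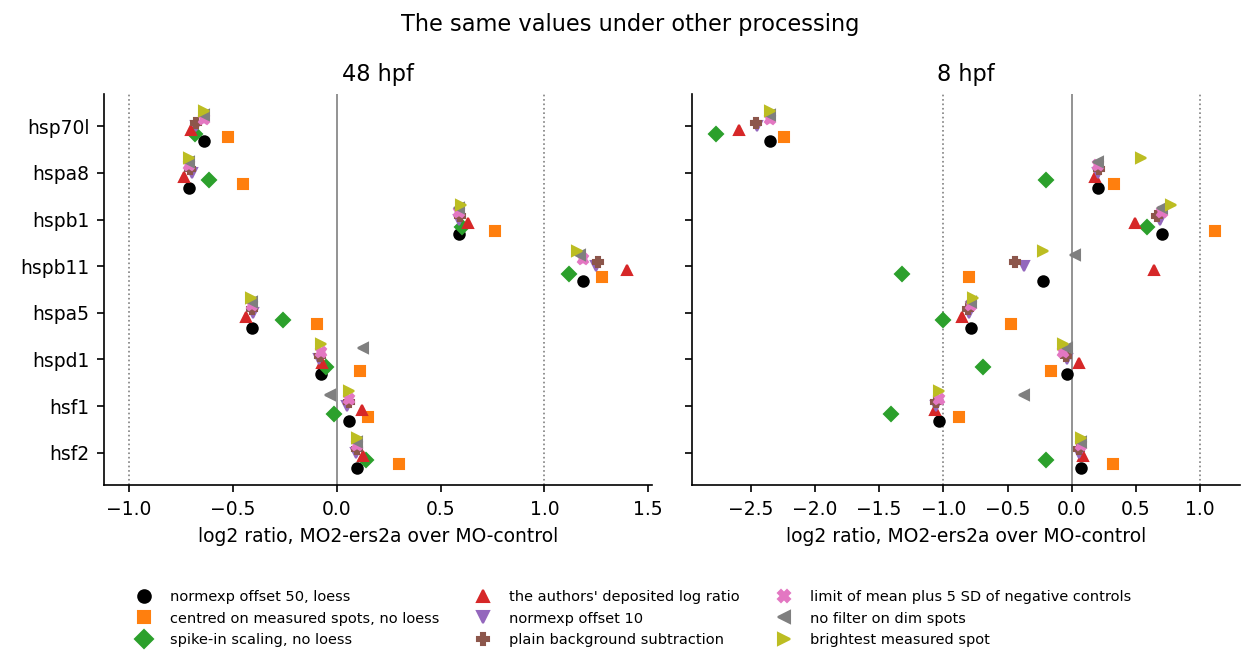
Log2 ratio of MO2-ers2a over MO-control of the 8 genes at 48 hpf (left) and 8 hpf (right), as reported (black) and under 8 other ways of processing (coloured markers); dotted lines mark 2-fold. hsp70l, hspb1 and hspa5 keep their sign under all settings at both times, while hspb11 at 8 hpf runs from -1.33 to 0.64.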

How the data were processed

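Median spot signals and median local backgrounds were deposited as intensity values for each channel, per the file headers; Agilent Feature Extraction made them, per the submitters' processing notes, in a version not given in the sources used here. A series matrix deposited by the authors holds log10 values; set against raw log2 red over green, their slope was 0.299 (r = 0.988, 9352 bright spots) at 48 hpf and 0.293 (r = 0.983, 8772 bright spots) at 8 hpf, close to the slope that a log10 ratio of red over green would have. Their column medians were 0, and the 34.7% and 36.8% of spots at exactly 0 were left out. The authors' dye normalization is not given in the sources used here.

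Signals were corrected with normexp (offset 50) and normalized by loess in limma 3.58.1 (R 4.3.3), control spots at weight 0; log2 levels by channel were scaled with Aquantile. The detection limits were the mean plus 2.6 SD of the negative controls, in Cy5 27.7 at 48 hpf and 24.4 at 8 hpf, in Cy3 70.1 and 59.9, passed by 47.9% and 44.4% of spots. The normalization step was tested on simulated data, for whether known changes kept their sign. Names were updated through an NCBI RefSeq table (assembly GRCz12tu) and a table of gene names, giving 20367 spots a symbol; 23296 had no match and 176 an ambiguous one. No sequence is printed, since none was in the files used. Calls are 2-fold rules of size. The alternatives were median centring or spike-in scaling (the median of the spike-in probes) in place of loess, the authors' ratios, offset 10, plain subtraction, a limit of 5 SD, no limit, and the brightest spot. The text names all 8 members, and of each list its 2-fold members or its highest and lowest, the 3 nearest patterns of hsp70l and hspb11, and some further list genes chosen after their values were seen. Members and lists were chosen with earlier results of these data known. Python 3.11.15, pandas 2.3.3, numpy 2.4.6 and matplotlib 3.10.9 did the rest.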

Additional observations from a re-analysis of the deposited data

How the results depend on the processing

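No paired analysis was possible because each time has 1 array with no replicate. At 48 hpf the number of the 8 genes past 2-fold was 1, hspb11, under all 8 alternatives. At 8 hpf it was 2, and moved to 4 with spike-in scaling, which put the median of all genes at -0.55, and to 1 without a limit on dim spots, which brought in the dim hsf1 spot. With median centring it was again 2, but 1 higher and 1 lower: hspb1 came past 2-fold at 1.11 and hsf1, at -0.88, no longer did. Of 127 single values under the alternatives, 115 stayed within the pooled SD between spots, 12 moved further, 9 changed sign and 5 crossed 2-fold. Some of the 115 could not move, so this count overstates stability. For hsp70l and hsf2, with 1 spot each, the limit of 5 SD, no limit and the brightest spot returned the same value. The first 2 of these also left hspa8, hspb1 and hspa5 unchanged, since all their spots were bright enough. None that was past 2-fold changed sign. The changes of sign were in hspa8, hspb11, hspd1 and hsf2 at 8 hpf and hspd1 and hsf1 at 48 hpf. Without hspb11's dim spot, as under the limit of 5 SD, 7 of the 8 genes were measured at 8 hpf. Counts over all genes past 2-fold moved too. The count of lower genes rose more than 1.5-fold at both times with each alternative listed below. As reported here, the counts were 212 higher and 208 lower at 48 hpf, and 357 and 346 at 8 hpf. With the authors' ratios they were 489 and 783 at 48 hpf, and 706 and 1030 at 8 hpf. Spike-in scaling gave 167 and 847 at 48 hpf and 136 and 3043 at 8 hpf, and median centring 278 and 434 at 48 hpf and 483 and 633 at 8 hpf. At offset 10 they were 282 and 425 at 48 hpf and 478 and 546 at 8 hpf, and with plain subtraction 297 and 528 at 48 hpf and 491 and 602 at 8 hpf. The number of arrays, 1 per time, limits every value.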

Other observations

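A relative of hspa8 on the array, hspa8b, chosen here after its values were seen, had 1 spot of 3 measured at 8 hpf. That spot gave 51 in MO2-ers2a and 242 in MO-control embryos, a log2 ratio of -1.97, and the authors' deposited table has -3.62. A second spot was above its limit in MO-control embryos alone, with 18 in MO2-ers2a and 75.5 in MO-control embryos, and the third was not above the limit in either, with 11 and 50. At 48 hpf none of the 3 was measured in both channels. The value thus rests on 1 spot; on dim spots the background-subtracted red signal was often below the green, as on the undetected hspb11 spots at 8 hpf.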
